A study of Mus musculus with 24 samples.

Results

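Mouse embryonic stem cells (ESCs) can be turned in culture into epiblast-like cells (EpiLCs), and these into primordial germ cell-like cells (PGCLCs). The genes described here were high in day 2 EpiLCs and low on either side of them, in the PGCLCs made from them and in the ESCs they came from. They numbered 143 of the 18194 genes measured (0.786%). A gene was taken when its mean log2 intensity in day 2 EpiLCs was at least 6, and when this mean stood at least 2 on the log2 scale, a 4-fold margin, above the PGCLC mean and above the ESC mean. The means came from 6 arrays of unamplified RNA, 2 per group, with intensities under 4.2 raised to 4.2. Each gene was read from the probe set with 1 gene symbol that was brightest on average over all 24 arrays, so the other 18 arrays entered the choice of probe set but not the margins or the level. The rule left aside 12 named genes, among them the epiblast markers Fgf5 and Pou3f1 and the DNA methyltransferase Dnmt3b, and 9 of the 12 met the same limits. The genes were thus selected on the values of those 6 arrays, which are given as a description, without a test. Just inside the limit against ESCs stood B230217C12Rik at 2.01, Pmaip1 at 2.02 and Limd2 at 2.03, and just outside it Tnfrsf22 and Jph4 at 1.99 and Epha1 at 1.98. Just inside the limit against PGCLCs stood Zmynd8 at 2.02, Nenf at 2.03 and Mael at 2.04, and just outside it Setd7 and Slc16a3 at 1.99 and Slc7a7 at 1.97. Just inside the limit on level stood Prr36 at 6.00, Hpca at 6.01 and Kcnn2 at 6.02, and just outside it Cass4 at 5.98, Syt4 and Rbp7 at 5.97.

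The study measured 24 arrays in 12 groups of 2 biological replicates, all from the mouse strain C57BL/6. On the 12 unamplified arrays these were PGCLCs induced out of day 2 EpiLCs, epiblast stem cells (EpiSCs, a line derived from E5.75 epiblast), ESCs held without feeders in 2i and LIF, and EpiLCs after 1, 2 and 3 days of induction from those ESCs. On the 12 arrays whose RNA went through 22 cycles of PCR, from 5 ng that stood for 500 cells, the groups were embryonic PGCs of E9.5, PGCLCs, EpiSCs, day 2 EpiLCs, pre-gastrulation epiblast of E5.5 to E6.0, and ESCs. The labels name no allele or transgene in any group, and how PGCs, PGCLCs and epiblast were isolated is not stated in the labels read here. Nor do the labels say whether the amplified and the unamplified arrays of a cell type used the same RNA, nor what sets biological replicates apart. The p-values therefore speak of the spread between these samples alone, which may be technical.

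The epiblast of the implanting embryo is the pluripotent tissue from which the body and the germ cells arise. As it matures from the naive state that 2i and LIF hold in ESCs, it turns on a primed program: new transcription factors, growth factor signalling, epithelial and matrix genes and de novo DNA methylation. Day 2 EpiLCs are the cultured counterpart of that state. They can answer BMP4 by becoming PGCLCs, and germ cell specification is known for silencing somatic genes and for regaining part of the pluripotency program. EpiSCs are a stable primed line and are known to make germ cells poorly.

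Cell identity was checked with marker lists. The summed intensity of 10 germ cell markers was 25190 and 25816 in PGCLCs, against 2612 and 2876 in day 2 EpiLCs (unamplified), and 27107 and 31790 in E9.5 PGCs, against 2153 and 1540.4 in epiblast. Naive pluripotency markers summed to 7008 and 7365 in day 2 EpiLCs, against 41212 and 41948 in ESCs. Across genes, the r between replicates lay between 0.975 and 0.991 without amplification and between 0.911 and 0.972 with it, lowest in amplified EpiSCs. The 5′ to 3′ ratio of the Actb control probe sets lay between 0.0503 and 0.206 on amplified arrays, against 0.792 to 0.874 on the others, so the sets were fitted separately. All 143 genes could be tested on unamplified arrays and 138 on amplified arrays. Precision is limited by having 2 arrays a group.

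The low-value filter level, 28.1 on unamplified and 24.04 on amplified arrays, marks what is called low here, and values under it have no order among themselves. Of the 143 genes, 69 were above this level in PGCLCs or ESCs and so had a measured margin. The other genes have a lower bound, taken against the filter level. The 8 genes whose margins were widest with the floor of 4.2 all had PGCLC and ESC means under the filter level. Day 2 EpiLCs stood at least 7.36-fold above it for Ms4a4d, a tetraspanning membrane protein gene, at least 5.87-fold for Klhl14, a BTB-kelch gene, and at least 5.41-fold for Jakmip2, a coiled-coil gene expressed in neurons. The bound was 11.8-fold for Tmem59l, a neuronal membrane protein of the Golgi, 7.97-fold for Tmem54, another membrane protein gene, and 12.4-fold for Doc2a, a calcium sensor of synaptic vesicle release. It was 4.56-fold for Mal2, a transcytosis protein of polarized epithelia, and 11.8-fold for Lrp2 (megalin), the endocytic receptor for lipoproteins and morphogens. The widest measured margin was 18.4-fold, for the long noncoding RNA gene Gm9564, which has a provisional name. After it, measured margins reached 15.9-fold for Mapk12, a p38 kinase, 15.7-fold for Crmp1, which relays semaphorin signals, and 14.9-fold for the basic helix-loop-helix gene Tcfl5, genes chosen after their values were seen. Ms4a4d had intensities of 1.00 and 5.64 in PGCLCs, against 192 and 223 in day 2 EpiLCs on unamplified arrays, while ESCs held 1.38 and 4.01. Klhl14 measured 4.06 and 4.73 in PGCLCs, against 153 and 178 in day 2 EpiLCs, and stood at 1.00, the lowest value in the data, on both ESC arrays. Neither gene exceeded 6 in any PGCLC or ESC array, so the groups were far apart. Tmem59l had 9.91 and 9.27 in PGCLCs, against 332 and 334 in day 2 EpiLCs, with 1.00 on both ESC arrays. Lrp2 had 13.4 and 10.4 in PGCLCs, against 313 and 352 in day 2 EpiLCs, and 9.22 and 12.8 in ESCs. In these 4 genes every PGCLC and ESC array lay under the filter level and every day 2 EpiLC array above it.

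**Figure D1:**
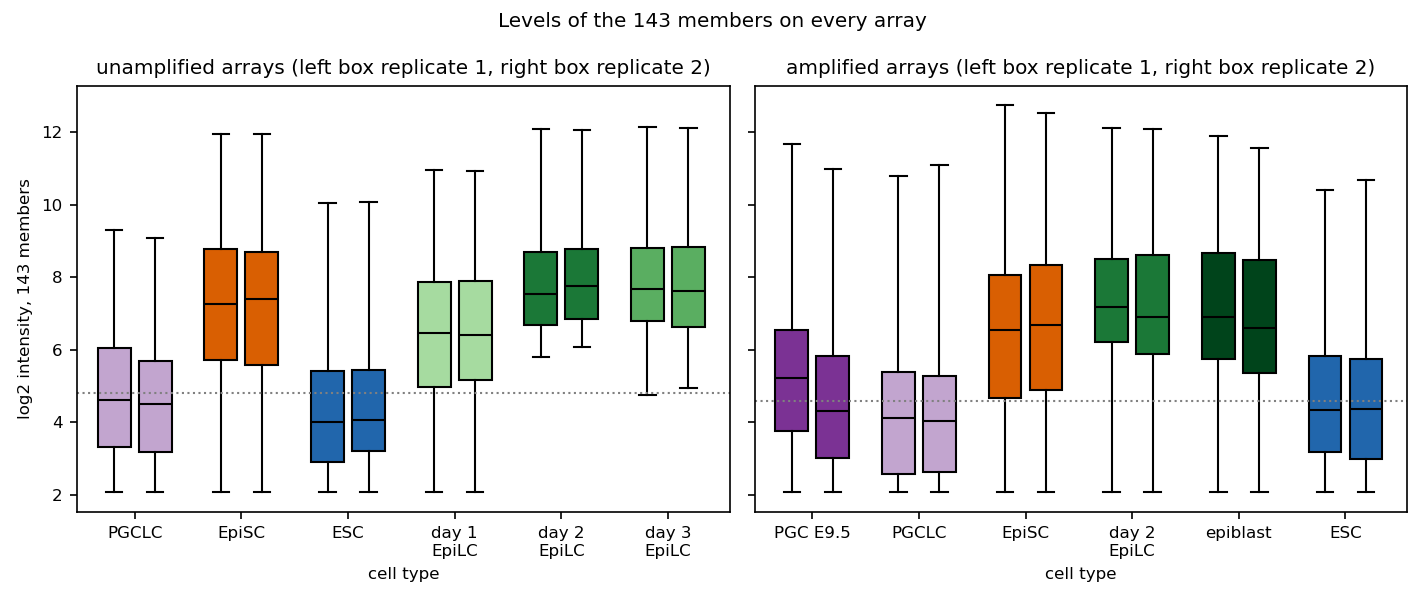
Box plots of log2 intensity of the 143 genes on each of the 24 arrays, with unamplified arrays on the left and amplified arrays on the right; boxes span the quartiles with the median line, whiskers run to the lowest and the highest gene, and the dotted line is the level used as the low-value filter. Boxes of day 2 and day 3 EpiLCs, EpiSCs and epiblast sit above the line, those of PGCLCs and ESCs straddle it, and the boxes of E9.5 PGCs sit at medians of 5.23 and 4.30.

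Over the 143 genes, the median log2 intensity was 4.46 in PGCLCs against 7.66 in day 2 EpiLCs, which in turn stood against 3.99 in ESCs. By the filter level, 74 of the 143 genes were below the filter level in both PGCLCs and ESCs, and 47 were above it in both. On the 2 unamplified PGCLC arrays, 65 and 62 of the 143 genes were above it, and for these "lowered" describes the change more closely than "shut off". The PGCLC mean lay within 1 log2 unit of the ESC mean for 98 genes, at least 1 above it for 31 and at least 1 below it for 14. These counts take values as measured down to the floor of 4.2. They include genes under the filter level in both groups, where values have no order. Tmem59l is such a gene among the 31, and Tsx among the 14. In such bulk RNA, fewer cells expressing a gene and less RNA per cell cannot be told apart. Taking replicate 1 or replicate 2 alone, 128 and 132 of the 143 genes passed both margins.

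RefSeq promoter windows, 250 bases before to 50 after the start (GRCm38.p6), were found for 100 of the 143 genes. As base composition goes, 60% of these promoters were rich in CpG (observed over expected CpG at least 0.6 and GC at least 55%), against 59.2% of 11904 tested genes with a window. Of 9 motifs searched on both strands, the GC box GGGCGG was in 69.0% of the promoters of these genes against 63.3% of tested promoters, and the E-box CACGTG in 12% against 11.0%. TATAAA was in 12% against 10.1%, the octamer ATGCAAAT in 2.00% against 1.56%, the homeodomain word TAATCC in 6.00% against 7.01%, and the TCF word CTTTGAT in 3.00% against 3.33%. The CRE TGACGTCA was in 2.00% against 3.17%, the ETS word CAGGAAGT in 2.00% against 3.93%, and AACCGGTT in 0% against 0.260%. A match is a string of letters and was not tested as a site. How alike the promoters of the set are was not measured. As examples, the 250 bases before the start are given for 5 genes, picked after their values were seen. They are Ms4a4d and Tmem59l, low at both ends of the route, Sfrp2 and Igsf9, whose fall differed between culture and embryo, and Mael, a germline gene. Each runs 5′ to 3′ on the strand of the gene, and capitals mark a searched motif or its reverse complement. Where a gene had several windows, that with the most motif matches was printed, so motif content was part of the choice. The windows are chr19:11536544-11536793 (plus strand) for Ms4a4d, chr8:70487349-70487598 (minus) for Tmem59l, chr3:83766071-83766320 (plus) for Sfrp2, chr1:172481963-172482212 (plus) for Igsf9 and chr1:166238745-166238994 (minus) for Mael.
Ms4a4d: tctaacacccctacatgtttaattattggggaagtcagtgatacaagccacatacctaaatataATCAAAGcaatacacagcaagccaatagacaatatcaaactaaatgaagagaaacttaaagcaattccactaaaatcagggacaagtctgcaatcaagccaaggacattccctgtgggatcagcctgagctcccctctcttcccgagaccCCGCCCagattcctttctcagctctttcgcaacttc
Tmem59l: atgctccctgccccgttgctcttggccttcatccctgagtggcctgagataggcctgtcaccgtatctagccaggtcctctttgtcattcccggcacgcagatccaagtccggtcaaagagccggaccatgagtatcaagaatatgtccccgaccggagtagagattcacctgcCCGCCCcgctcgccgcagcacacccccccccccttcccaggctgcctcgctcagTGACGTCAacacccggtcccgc
Sfrp2: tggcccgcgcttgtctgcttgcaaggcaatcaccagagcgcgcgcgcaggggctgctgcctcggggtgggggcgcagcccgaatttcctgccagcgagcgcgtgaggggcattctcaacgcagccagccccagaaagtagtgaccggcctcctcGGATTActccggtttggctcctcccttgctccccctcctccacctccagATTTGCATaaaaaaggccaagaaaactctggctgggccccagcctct
Igsf9: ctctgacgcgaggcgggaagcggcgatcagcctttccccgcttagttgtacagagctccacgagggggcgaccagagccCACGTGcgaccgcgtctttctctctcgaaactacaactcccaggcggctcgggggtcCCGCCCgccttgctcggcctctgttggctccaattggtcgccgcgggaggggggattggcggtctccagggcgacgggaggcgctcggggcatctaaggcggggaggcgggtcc
Mael: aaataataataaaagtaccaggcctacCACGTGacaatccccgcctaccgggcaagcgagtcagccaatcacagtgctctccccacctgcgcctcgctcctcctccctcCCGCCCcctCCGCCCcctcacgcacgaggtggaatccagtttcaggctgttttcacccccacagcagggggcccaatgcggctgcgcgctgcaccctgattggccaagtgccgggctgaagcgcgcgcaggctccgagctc
The Ms4a4d window holds 3 CpG, a TCF word and a GC box, and the Igsf9 window holds 28 CpG, an E-box and a GC box. Sfrp2 alone of the 5 holds the octamer, and Mael holds a pair of GC boxes side by side.

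The day-by-day arrays show how the genes came on. Median log2 intensity of the 143 genes was 3.99 in ESCs, 6.38 on day 1, 7.66 on day 2 and 7.64 on day 3. Day 1 reached a median of 58.7% of the log2 distance between ESCs and day 2, and 88 genes had covered over 50% of it. By mean level, 12 genes were highest on day 1, 59 on day 2 and 72 on day 3 of the EpiLC course. The day 3 and day 1 arrays entered the rule through the choice of probe set alone. Between them, 86 of the 143 genes were called higher on day 3 and 9 lower (limma, Benjamini-Hochberg adjusted p under 0.05 and a log2 difference of at least 1), where 8.52% of 14935 tested genes were called higher and 7.12% lower. The median difference was 1.29 (1.37 and 1.27 within replicates 1 and 2, each under 1 array code), against 0.02 over all genes measured. Klhl14 had 264 and 241 on day 3, against 1.00 on both arrays of day 1, which is at least 8.99-fold higher (adjusted p = 4.9e-08). Mal2 had 246 and 225 on day 3, against 4.09 and 7.92 on day 1 (at least 8.38-fold, adjusted p = 5.5e-07). Plekhh3, a gene of the pleckstrin and FERM domain family, had 162 and 153 on day 3, against 3.32 and 3.17 on day 1 (at least 5.60-fold, adjusted p = 4.6e-07). All 3 lay below the filter level on both day 1 arrays and above it on both arrays of days 2 and 3. The opposite course was that of the zinc finger gene Wt1, known for kidney and gonad development, with 52.3 and 46.3 on day 3, against 274 and 269.6 on day 1 (log2 difference -2.46 ± 0.23 SE, adjusted p = 7.9e-06). Zfp467, another zinc finger gene, fell by 1.97 ± 0.23 (adjusted p = 4.0e-05), and Aire, which in the thymus turns on tissue antigens for tolerance, fell by 1.86 ± 0.28 (adjusted p = 0.00025). All 3 peaked on day 1 and were still at least 4-fold above ESCs on day 2, as the rule demands.

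The rise and the fall were looked at again on the amplified arrays, which entered the rule through the choice of probe set alone. Day 2 EpiLCs were called higher than ESCs for 100 of the 143 genes and lower for 0 (limma; 1 was lower at an unadjusted p under 0.05), where 4.27% of 15609 tested genes were called higher and 4.24% lower. PGCLCs were called lower than day 2 EpiLCs for 117 and higher for 0 (limma; also 0 at an unadjusted p under 0.05), where 6.24% of tested genes were called lower and 6.46% higher. Both the 100 and the 117 include Artn and Tc2n, which passed the low-value filter only through day 2 EpiLCs, the group where they are high. These comparisons share the day 2 EpiLC arrays. Their median differences over the 143 genes were 2.48 and -3.02, against 0.00 and -0.02 over all genes measured. Replicate numbers coincide with an array code in the labels, and within replicates 1 and 2 the medians were 2.58 and 2.40 for the rise and -3.05 and -3.10 for the fall. Tmem54 had 3.98 and 4.003 in PGCLCs, against 763 and 587 in day 2 EpiLCs (at least 27.9-fold lower, adjusted p = 1.5e-05), and ESCs held 1.00 and 1.053 (day 2 EpiLCs at least 27.9-fold higher, adjusted p = 2.5e-05). Tmem59l had 10.1 and 7.14 in PGCLCs, against 956 and 1174 in day 2 EpiLCs (at least 44.1-fold lower, adjusted p = 1.5e-05). Such a bound is given where the mean of the lower group lay below the filter level, and it is taken against that level. An array above the level entered with its own value, which was 1 of 2 arrays for Pmaip1 and Cyyr1 in PGCs, for Smo and Syce3 in PGCLCs and for Tmem54 in EpiSCs. With every array of the 143 genes held at that level or above, the median differences were 1.80 for the rise and -2.13 for the fall. Tcfl5, known from spermatocytes, had 36.8 and 32.2 in PGCLCs, against 1932 and 1695 in day 2 EpiLCs, 52.6-fold lower (log2 difference -5.72 ± 0.29 SE, adjusted p = 8.4e-06). In all 3 genes the lower of the day 2 EpiLC arrays stood far above the higher of the PGCLC arrays.

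**Figure D2:**
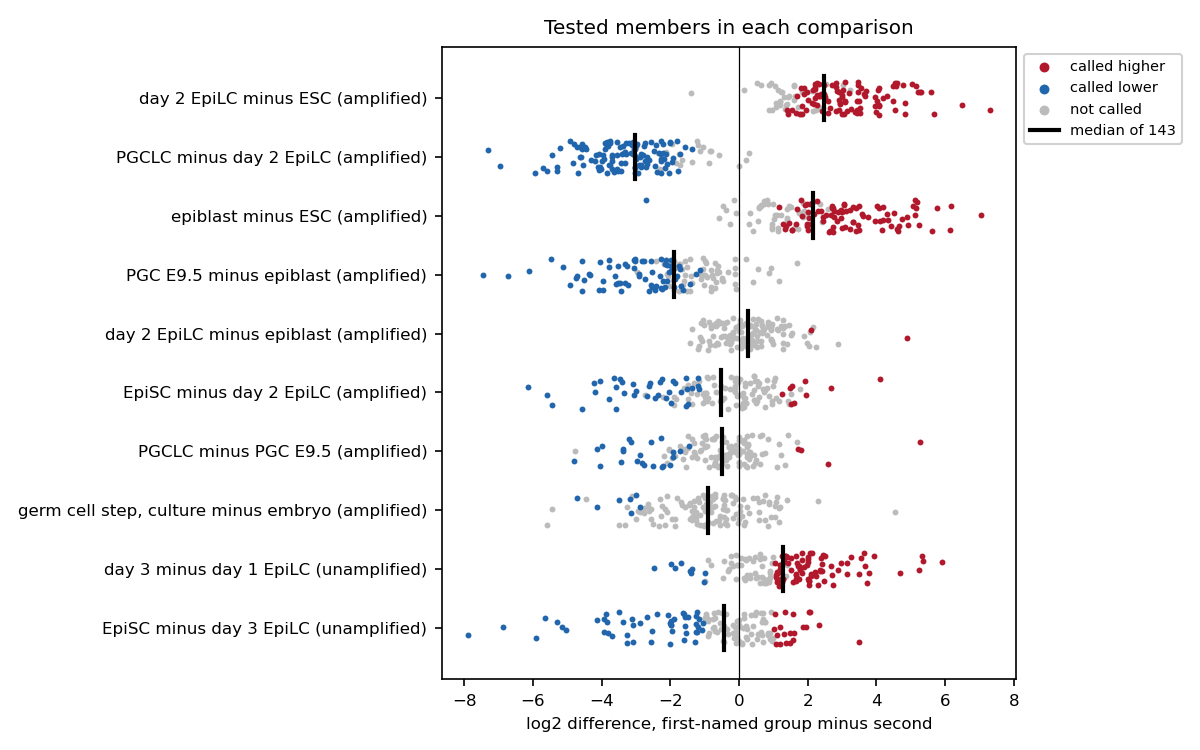
Log2 differences (x axis) of the tested genes among the 143, a point per gene, in the 10 comparisons (rows, first-named group minus second); red points were called higher, blue points lower, grey points neither, and the black bar is the median of the 143, all with low values as measured down to the floor of 4.2. The points of day 2 EpiLC minus ESC lie nearly all right of 0 and those of PGCLC minus day 2 EpiLC nearly all left of 0, with medians of 2.48 and -3.02, while day 2 EpiLC minus epiblast is centred near 0.

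Not every gene behaved alike on amplified arrays, and 13 of the 143 were called in none of the 4 amplified comparisons made along the routes in culture and embryo. Of these, 5 were too low to test: Gm364, Slc24a1, Mdfi, Efcab15 and Shank3. Mdfi, an inhibitor of myogenic transcription factors, had 165 and 179 in day 2 EpiLCs on unamplified arrays and only 1.00 to 8.09 on the amplified ones. Serpini2, a serine protease inhibitor gene, went the other way, with 667 to 2279 on all 12 amplified arrays but 13.7 and 1.00 in PGCLCs, against 121 and 113 in day 2 EpiLCs, on unamplified ones. The Actb ratios above differ between the same sets, and their part in these differences was not tested. Myh6, a cardiac myosin heavy chain gene, had 72.2 and 81.8 in amplified PGCLCs, against 79.7 and 73.0 in day 2 EpiLCs (log2 difference 0.01 ± 0.30 SE, adjusted p = 0.99), although unamplified PGCLCs held 7.54 and 10.2 against 64.6 and 75.3. Cyyr1, a small membrane protein gene, likewise had 65.1 and 78.6 in amplified PGCLCs, against 51.9 and 74.4 in day 2 EpiLCs (0.20 ± 0.33, adjusted p = 0.76). These 2 genes fulfilled the rule on unamplified arrays only.

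The same genes were then followed in the embryo. The epiblast was called higher than ESCs for 89 of the 143 genes and lower for 1, where 5.18% of tested genes were called higher and 6.64% lower. The median difference was 2.14 (2.38 and 2.05 within replicates 1 and 2), and this comparison shares its ESC arrays with the day 2 EpiLC comparison above. Tmem54 had 666 and 454 in epiblast, against 1.00 and 1.053 in ESCs (at least 22.9-fold higher, adjusted p = 2.1e-05). Slc35d3, a nucleotide sugar transporter-like gene, had 451 and 507 in epiblast, against 10.7 and 3.72 in ESCs (at least 19.9-fold, adjusted p = 5.3e-05). Tmem59l had 662 and 631 in epiblast, against 12.7 and 11.0 in ESCs (at least 26.9-fold, adjusted p = 4.6e-05). The gene that fell was Chac1, which degrades glutathione and is induced by endoplasmic reticulum stress: it had 45.4 and 62.1 in epiblast, against 349 and 350.2 in ESCs (log2 difference -2.72 ± 0.35, adjusted p = 0.00082). Steap2, a metalloreductase, differed by -0.57 ± 0.31 and was not called, and Plekhh3 had 30.2 and 12.7 in epiblast, against 30.4 and 23.8 in ESCs, near the filter level in both. Visceral endoderm, the tissue that wraps the epiblast, showed 13 and 12 of its 13 markers above the filter level in the epiblast arrays, and its part in these differences was not tested.

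Set directly against the epiblast, day 2 EpiLCs were called higher for 2 of the 143 genes and lower for 0, where 0.653% and 0.308% of tested genes were called. At an unadjusted p under 0.05 (limma), 23 were higher and 6 lower. The genes were chosen for a high level in day 2 EpiLCs, with no condition on epiblast, so the rule favoured the higher direction. A fit blocked on replicate number called 6 genes, Lmo2 among them (adjusted p = 0.030). The median difference was 0.26, with 0.18 on replicate 1 and 0.34 on replicate 2. Chac1 had 1685 and 1466 in day 2 EpiLCs, against 45.4 and 62.1 in epiblast (4.89 ± 0.35, adjusted p = 0.00039). Dleu7, a gene in a region deleted in leukaemia, had 95.2 and 113 in day 2 EpiLCs, against 29.6 and 20.01 in epiblast (2.09 ± 0.39, adjusted p = 0.042). In both genes the arrays of the groups did not overlap. The call of Dleu7 was lost in 10 of the other settings tried, and leaving out any ESC, day 2 EpiLC, epiblast or PGCLC array left 1 gene called, while leaving out either EpiSC array gave 6. Further differences were not called: the metallothionein Mt3, a zinc and copper binding protein, had 188 and 145 in day 2 EpiLCs, against 57.4 and 8.77 in epiblast (at least 4.44-fold higher, adjusted p = 0.2; 1 of 2 epiblast arrays above the filter level). Artn, a ligand of the RET receptor, had 74.3 and 85.4 in day 2 EpiLCs, against 20.2 and 13.8 in epiblast. It was above the filter level in no other amplified group, so it entered the test through the group where it is high, as did Tc2n, while Gm364 and Efcab15 exceeded the level on 1 day 2 EpiLC array and were not tested. Lmo2, a transcriptional cofactor of blood development, had 86.8 and 178 in day 2 EpiLCs, against 26.5 and 30.01 in epiblast (2.14 ± 0.45, adjusted p = 0.075). At the other end stood Podxl, a sialomucin of the apical surface that opens lumens, with 397 and 477 in day 2 EpiLCs, against 1129.9 and 1186 in epiblast (-1.41 ± 0.36, adjusted p = 0.15). Klhl14 differed by -1.35 ± 0.39, Satb1, a chromatin organizer, by -1.18 ± 0.57, Stxbp6, a SNARE-binding gene, by -1.16 ± 0.73 and Aire by -1.14 ± 0.54, none of them called.

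Embryonic germ cells were set against the epiblast they come from. E9.5 PGCs were called lower than epiblast for 71 of the 143 genes and higher for 0 (limma; 2 were higher at an unadjusted p under 0.05), where 4.36% of tested genes were called lower and 6.11% higher. The median difference was -1.90, and it was -1.52 on the replicate 1 arrays and -2.12 on the replicate 2 arrays. The count fell to 42 without epiblast replicate 1, and to 45 without epiblast replicate 2 or without PGC replicate 2. Pmaip1 (Noxa), a pro-apoptotic BH3-only gene and target of p53, had 27.9 and 4.49 in E9.5 PGCs, against 2159 and 1793 in epiblast (at least 76.0-fold lower, adjusted p = 0.00012). Tmem54 had 6.40 and 3.76 in PGCs, against 666 and 454 in epiblast (at least 22.9-fold lower, adjusted p = 2.6e-05), and Slc35d3 had 6.01 and 8.09 in PGCs, against 451 and 507 (at least 19.9-fold lower, adjusted p = 6.7e-05). Lyzl1, a lysozyme-like gene known from testis, had 6.94 and 12.2 in PGCs, against 366 and 448 in epiblast (at least 16.8-fold lower, adjusted p = 0.00058), and Ms4a4d, at 1.00 on both PGC arrays, against 152 and 138 in epiblast, fell at least 6.03-fold (adjusted p = 8.1e-05). In these 5 genes no PGC array came near an epiblast array. At the other end, Fgfbp3, a carrier protein for FGF ligands, had 174 and 31.5 in PGCs, against 23.5 and 22.5 in epiblast (at least 3.08-fold higher, adjusted p = 0.23, not called). Lmo2 (1.15 ± 0.45), Myh6 (0.92 ± 0.30), Neurod1, a proneural transcription factor (0.86 ± 0.41), and Fndc3c1, a fibronectin type III gene (0.56 ± 0.34), were not called either.

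The comparison of PGCs with epiblast shares no array with that of PGCLCs with day 2 EpiLCs. Of the 71 genes lower in PGCs, 67 (94.4%) were also among the 117 lower in PGCLCs, of which they made up 57.3%. Over all 143 genes, 81.8% were called lower in PGCLCs and 49.7% lower in PGCs. The genes were chosen for the fall in PGCLCs, so a large overlap was set by the rule and is given as a description. The 4 others were Cyct, Fgd5, Il10 and Mael. PGC replicate 1 carried more of the genes than replicate 2, with 91 against 63 of the 143 above the filter level. It also carried more of the 12 blood and endothelium markers, which summed to 11592 and 4878 in PGC replicates 1 and 2, against 349 and 312 in epiblast, with 9 and 7 against 7 and 7 markers above the filter level. Fibroblast markers summed to 2599 and 1128 in PGCs, against 668 and 542 in epiblast, with 13 and 12 of 16 above the filter level in PGCs. In amplified PGCLCs the blood and endothelium markers summed to 1881 and 2408, against 395 and 384 in day 2 EpiLCs. The part of such markers in the levels of the 143 genes was not tested.

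**Figure D3:**
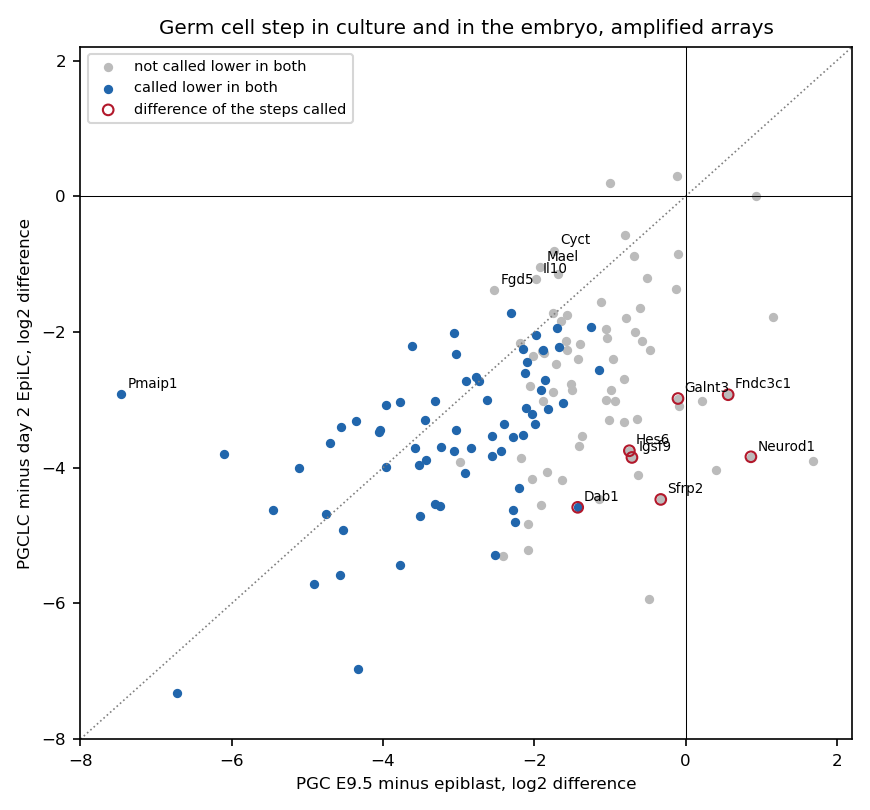
Each point is a gene among the 138 tested on amplified arrays, with the log2 difference of PGCLC minus day 2 EpiLC on the y axis and that of E9.5 PGC minus epiblast on the x axis; blue points were called lower in both, red rings mark a called difference between the steps, and the dotted line is where the steps are equal. Points lie mostly below the dotted line, as 110 of the 143 genes had the lower difference in culture, and the ringed genes lie at -2.92 to -4.58 on the y axis and, but for Dab1 at -1.43, within 1 of 0 on the x axis. Values under the filter level were plotted as measured, down to the floor of 4.2. The genes were chosen for a fall in culture, so the rule favoured points below the dotted line.

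Whether the fall differed between culture and embryo was tested as an interaction, PGCLC minus day 2 EpiLC less PGC minus epiblast. It was called for 7 of the 143 genes, all with the deeper fall in culture, and for 0 in the other direction (limma; 5 at an unadjusted p under 0.05), where 0.32% and 0.192% of tested genes were called. Blocked on replicate number it was called for 16, of which 15 had the deeper fall in culture. The genes were chosen for the fall in PGCLCs, with no condition on the embryo. A deeper fall in culture was thus favoured by the rule, and the counts by direction are given as a description. The median difference of the steps was -0.91, with -1.24 on replicate 1 and -0.57 on replicate 2, and -0.44 with values held at the filter level, where 8 genes were called lower and 2 higher. In Neurod1, Sfrp2 and Dab1 both PGCLC arrays lay under that level, so their difference is also given with values held at it, the smaller and safer size. Neurod1 had 7.03 and 9.10 in PGCLCs, against 145 and 90.5 in day 2 EpiLCs, and 109.9 and 67.9 in PGCs, against 57.8 and 39.0 in epiblast (difference of the steps -4.70 ± 0.57, adjusted p = 0.011; held at the filter level -3.12 ± 0.43, adjusted p = 0.014). Sfrp2, a secreted WNT antagonist whose promoter is printed above, had 8.59 and 8.35 in PGCLCs, against 289 and 122 in day 2 EpiLCs, and 313 and 181 in PGCs, against 311 and 287 in epiblast (-4.14 ± 0.62, adjusted p = 0.024; held -2.64 ± 0.57, adjusted p = 0.098, not called). Igsf9, an immunoglobulin superfamily gene of dendrites, whose promoter is also printed, had 30.8 and 28.5 in PGCLCs, against 439 and 416 in day 2 EpiLCs, and 325 and 224 in PGCs, against 479.7 and 406 in epiblast (-3.14 ± 0.35, adjusted p = 0.0080). In each of these 3 genes both PGC arrays stayed far above both PGCLC arrays.

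Fndc3c1 had 51.3 and 67.5 in PGCLCs, against 425 and 469.6 in day 2 EpiLCs, and 961 and 997 in PGCs, against 591 and 743 in epiblast (-3.49 ± 0.48, adjusted p = 0.022). Galnt3, which starts mucin-type O-glycans, had 44.7 and 76.3 in PGCLCs, against 491 and 432 in day 2 EpiLCs, and 374 and 501 in PGCs, against 445 and 485 in epiblast (-2.88 ± 0.42, adjusted p = 0.022). For both genes PGC arrays lay at or above the epiblast range on at least 1 array. Dab1, the adaptor of reelin signalling, fell in both settings, to 10.8 and 11.8 in PGCLCs, against 337 and 217 in day 2 EpiLCs, and to 78.9 and 74.6 in PGCs, against 226 and 188 in epiblast (-3.16 ± 0.45, adjusted p = 0.022; held -2.07 ± 0.46, adjusted p = 0.11, not called). Hes6, a helix-loop-helix gene that opposes Hes1, had 136 and 120.3 in PGCLCs, against 1486 and 1992 in day 2 EpiLCs, and 486 and 367 in PGCs, against 704 and 709 in epiblast (-3.01 ± 0.48, adjusted p = 0.032). These calls rested on few arrays: the count was 0 or 2 without epiblast replicate 2 or 1, 1 or 4 without day 2 EpiLC replicate 1 or 2, 2 or 1 without PGCLC replicate 1 or 2, and 3 or 17 without PGC replicate 1 or 2. Fgfbp3 and Car3, a carbonic anhydrase of muscle and fat, lay under the filter level in both PGCLCs and epiblast by their means, and their differences of the steps were -3.00 and -2.43 when held at it, not called (adjusted p = 0.34 and 0.14). In the other direction, Pmaip1 differed by 3.34 ± 0.40 when held at the level (adjusted p = 0.00913) and was not called with values as measured (adjusted p = 0.084). Held at the level, Slc35d3 differed by 0.88, Nap1l2, a nucleosome assembly gene, by 0.81, Cyyr1 by 0.97 and Fgd5, an exchange factor of endothelial cells, by 0.38, none of them called. In the fit blocked on replicate number, with values as measured, Fgfbp3, Car3 and Pmaip1 were called (adjusted p = 0.038, 0.025 and 0.031).

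**Figure D4:**
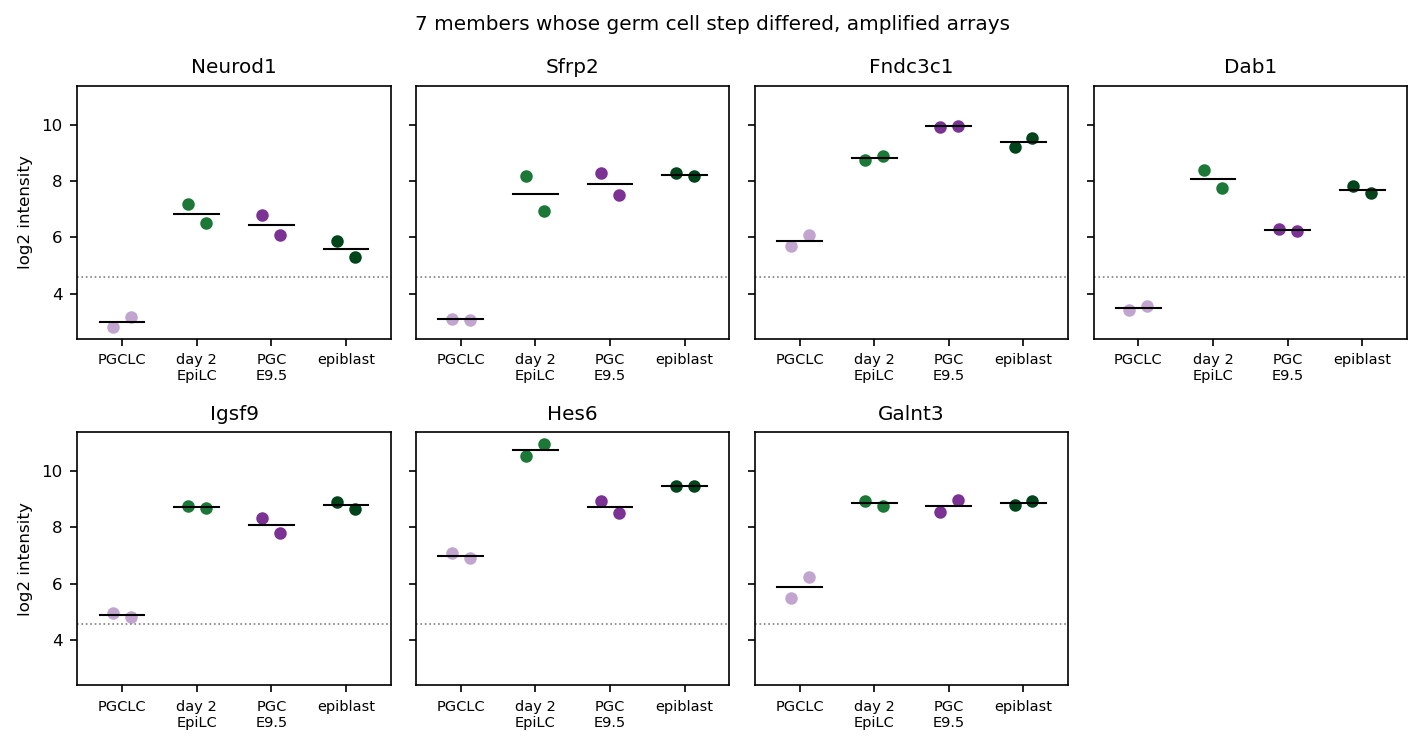
Log2 intensity on amplified arrays (y axis) of the 7 genes whose germ cell step differed between culture and embryo, with a point per array, a line at the mean of 2 arrays and a dotted line at the filter level; columns are PGCLC, day 2 EpiLC, E9.5 PGC and epiblast. In every panel the PGCLC points are the lowest, and the PGC points stay above the filter level.

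Put side by side, PGCLCs were called lower than E9.5 PGCs for 23 of the 143 genes and higher for 4, where 1.32% and 1.56% of tested genes were called. The genes were chosen for low PGCLC levels, with no condition on PGCs, so the rule favoured the lower direction. The median difference was -0.50, with -0.94 on replicate 1 and -0.15 on replicate 2, and it was 0.00 with values held at the filter level. The count of 27 became 13 without PGC replicate 1, 10 or 11 without PGCLC replicate 1 or 2, and 0 when only the PGCLC and PGC arrays entered the fit. Sfrp2 was at least 9.90-fold lower in PGCLCs (adjusted p = 0.00094). Fgfbp3 had 3.27 and 1.81 in PGCLCs, against 174 and 31.5 in PGCs (at least 3.08-fold lower, adjusted p = 0.022, a call lost with values held at the filter level, adjusted p = 0.42), and Fndc3c1 differed by -4.06 ± 0.34 (adjusted p = 0.00058). The 4 genes higher in PGCLCs were Pmaip1 with 558 and 339.7, against 27.9 and 4.49 in PGCs (at least 16.8-fold, adjusted p = 0.0038), Chac1 with 161 and 158, against 31.3 and 22.3 (2.59 ± 0.35, adjusted p = 0.0053), Mael (1.80 ± 0.31, adjusted p = 0.016) and Cyyr1 (at least 2.83-fold, adjusted p = 0.024). No array of PGCLCs overlapped one of PGCs in any of the 4.

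EpiSCs held 119 and 118 of the 143 genes above the filter level on unamplified arrays, and 110 and 113 on amplified arrays. On amplified arrays they were called lower than day 2 EpiLCs for 38 of the 143 genes and higher for 9, where 3.86% and 8.61% of tested genes were called. On unamplified arrays they were called lower than day 3 EpiLCs for 51 and higher for 20, where 6.6% and 13.7% were called. Median differences were -0.53 (-0.74 and -0.34 within amplified replicates 1 and 2) and -0.44. These comparisons share no array. The genes were chosen for a high level in day 2 EpiLCs, with no condition on EpiSCs, so the rule favoured lower calls in EpiSCs. Lower in both were 32 genes, 84.2% of the 38 and 62.7% of the 51, and higher in both were 7 genes, 77.8% of the 9 and 35.0% of the 20. Artn and Tc2n are among the 32, and on amplified arrays they passed the low-value filter only through day 2 EpiLCs. With only the EpiSC and day 2 EpiLC arrays in the fit, the 38 became 17. Within the unamplified replicate 2 arrays, the only ones of this comparison that share an array code in the labels, the median was -0.44. All 16 fibroblast markers were above the filter level in unamplified EpiSCs (summed 11499 and 11433, against 2174 and 2362 in day 3 EpiLCs), and 15 and 16 in amplified EpiSCs (3767 and 4001, against 712 and 870.2 in day 2 EpiLCs). Markers of primitive streak and mesendoderm summed to 2621 and 2454 in unamplified EpiSCs, against 239.9 and 235 in day 3 EpiLCs, with 10 and 9 of 17 above the filter level against 2 and 2. On amplified arrays 13 and 9 of them were above it in EpiSCs, against 4 and 3 in day 2 EpiLCs. Dcn, a matrix proteoglycan, and Thy1, a surface glycoprotein, are themselves among the fibroblast markers, and the part of either marker list in the other differences was not tested.

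The genes that were highest in EpiSCs were led by Car3, with 1802 and 1119.9 in amplified EpiSCs, against 102 and 67.7 in day 2 EpiLCs (4.10 ± 0.58, adjusted p = 0.0015), and 2083 and 2004 in unamplified EpiSCs, against 195 and 171 in day 3 EpiLCs (3.48 ± 0.27, adjusted p = 1.5e-06). Pgap4, a gene of GPI anchor modification, was higher by 1.495 ± 0.40 and 2.34 ± 0.35 in the amplified and unamplified comparison (adjusted p = 0.036 and 0.00018). Cthrc1, a secreted collagen triple helix protein, was higher by 1.94 ± 0.36 and 1.58 ± 0.26 (adjusted p = 0.0067 and 0.00037). The others were Armcx3, Fndc3c1, Igtp and Zcchc18. Cxcl10, an interferon-induced chemokine, had 189.7 and 64.4 in amplified EpiSCs, against 15.7 and 19.06 in day 2 EpiLCs (at least 4.60-fold, adjusted p = 0.0084), and differed by 0.76 ± 0.23 on unamplified arrays, which was not called. Vash2, a vasohibin that removes tyrosine from tubulin, had 145 and 173 in unamplified EpiSCs, against 47.5 and 30.6 in day 3 EpiLCs (2.06 ± 0.27, adjusted p = 7.6e-05), but differed by -0.99 ± 0.50 on amplified arrays, not called. At the low end, Tmem54 had 24.9 and 9.46 in amplified EpiSCs, against 763 and 587 in day 2 EpiLCs (at least 27.4-fold lower, adjusted p = 6.1e-05), and Klhl14 had 3.52 and 3.35 in unamplified EpiSCs, against 264 and 241 in day 3 EpiLCs (at least 8.99-fold lower, adjusted p = 2.5e-08).

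**Figure D5:**
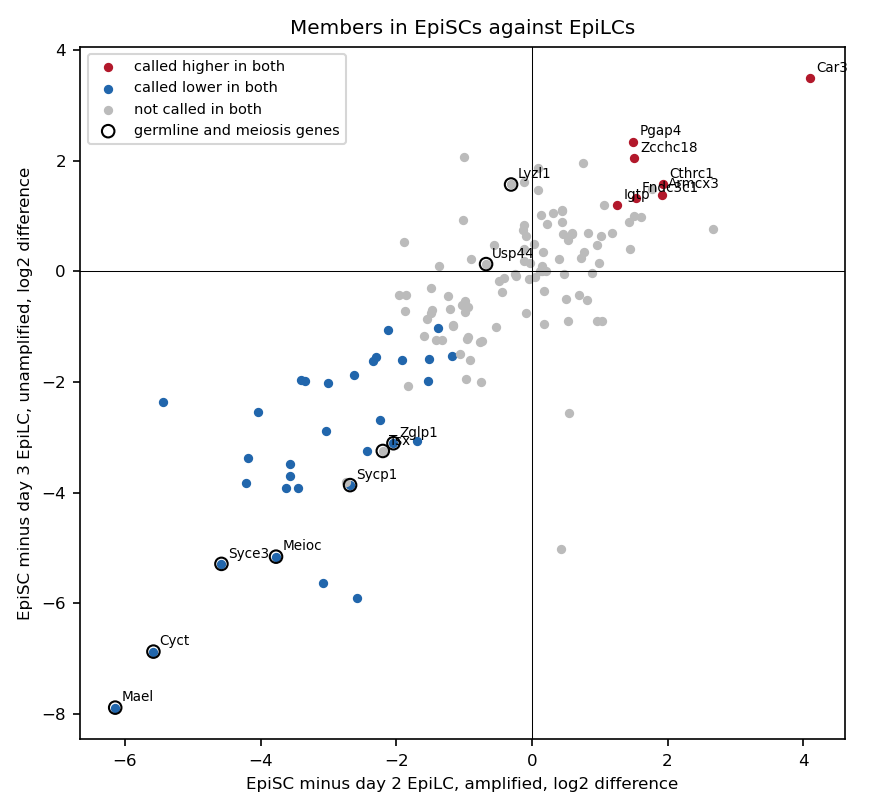
Log2 difference of EpiSC minus day 3 EpiLC on unamplified arrays (y axis) against EpiSC minus day 2 EpiLC on amplified arrays (x axis), a point per gene among the 138 tested on both; red points were called higher in both, blue points lower in both, grey points neither, and black rings mark the 9 germline and meiosis genes. The ringed genes Mael, Cyct, Syce3, Meioc and Sycp1 run down the lower left edge to -7.89 on the y axis, and Lyzl1 and Usp44 lie near 0 on the x axis.

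By known role the 143 genes fell into groups that were drawn up after membership was known; members named below for their role, outside the rule for named genes, were picked after their values were seen. Over all 143 genes, 69.9% were called higher in day 2 EpiLCs than in ESCs, 81.8% lower in PGCLCs than in day 2 EpiLCs, 62.2% higher in epiblast than in ESCs, 49.7% lower in PGCs than in epiblast and 16.1% lower in PGCLCs than in PGCs. The genes were chosen for the first pair of these differences, so counts by group describe the set and are no evidence of a theme. Germline and meiosis genes numbered 9. Of these, 6 were called lower in PGCLCs than in day 2 EpiLCs and 7 lower in PGCs than in epiblast. In EpiSCs 7 were called lower and 1 higher on unamplified arrays, and 6 lower on amplified arrays. Mael, which acts in the piRNA pathway that silences transposons, had 7.997 and 5.19 in amplified EpiSCs, against 473 and 439 in day 2 EpiLCs (at least 19.0-fold lower, adjusted p = 6.6e-06), and 2.44 and 2.78 in unamplified EpiSCs, against 987 and 999 in day 3 EpiLCs (at least 35.3-fold, adjusted p = 2.3e-11). Cyct, the testis form of cytochrome c, had 12.5 and 20.4 in amplified EpiSCs, against 693 and 843 in day 2 EpiLCs (at least 31.8-fold lower, adjusted p = 5.9e-05), and 12.6 and 12.4 in unamplified EpiSCs, against 1463 and 1471 (at least 52.2-fold, adjusted p = 1.3e-08). In PGCLCs, Mael had 180.4 and 271 in amplified PGCLCs, against 473 and 439 in day 2 EpiLCs (-1.04 ± 0.31, adjusted p = 0.054), and Cyct 586 and 328, against 693 and 843 (-0.80 ± 0.45, adjusted p = 0.3), neither called. Sycp1, a synaptonemal complex gene, had 20.1 and 34.6, against 36.1 and 42.7 (-0.58 ± 0.36, adjusted p = 0.36). Syce3, of the same complex, had 24.7 and 1.00 in PGCLCs, against 180.1 and 55.9 (at least 4.12-fold lower, adjusted p = 0.035), and Meioc, which keeps meiotic prophase going, had 4.34 and 3.89, against 78.1 and 42.2 (at least 2.39-fold lower, adjusted p = 0.00044). Lyzl1 and Usp44, a deubiquitinase of mitosis, were called lower in PGCLCs and did not differ by a call in amplified EpiSCs.

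Secreted signals, receptors and their modulators were the largest group, with 27 genes. Of these, 22 were called higher in day 2 EpiLCs than in ESCs, 24 lower in PGCLCs than in day 2 EpiLCs, and 22 higher in epiblast than in ESCs. In E9.5 PGCs 13 were called lower than in epiblast, and 10 of the 27 were lower in PGCLCs than in PGCs, beside the shares of the 143 given above. The WNT enhancer Rspo1 had 5.82 and 6.06 in amplified PGCLCs, against 176 and 308 in day 2 EpiLCs (at least 9.68-fold lower, adjusted p = 0.00021), and PGCs still held 62.5 and 17.8, against 187 and 195 in epiblast (-2.52 ± 0.53, adjusted p = 0.014). The WNT receptor gene Fzd2 had 18.7 and 10.4 in PGCLCs, against 712 and 373 in day 2 EpiLCs (at least 21.4-fold lower, adjusted p = 0.0015), and 265 and 78.3 in PGCs, against 804 and 466 in epiblast (-2.09 ± 0.73, not called). Smo, the transducer of hedgehog signals, had 24.1 and 19.3 in PGCLCs, against 656 and 427 in day 2 EpiLCs (at least 22.0-fold lower, adjusted p = 0.00011), and was at least 9.20-fold lower in PGCLCs than in PGCs, which held 351 and 139.5 (adjusted p = 0.0033). For all 3, PGC replicate 1 was higher than replicate 2.

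Crabp2, which carries retinoic acid to its receptors, had 57.1 and 40.7 in PGCLCs, against 1389 and 424 in PGCs (-3.99 ± 0.48, adjusted p = 0.0029), and 745 and 584 in epiblast. Mdk (midkine), a heparin-binding growth factor, had 533 and 382 in PGCLCs, against 3239.8 and 1415 in PGCs (-2.25 ± 0.36, adjusted p = 0.011). Dok2, an adaptor that damps tyrosine kinase signals, fell in both: 21.5 and 20.3 in PGCLCs, against 825 and 981 in day 2 EpiLCs (at least 37.4-fold lower, adjusted p = 1.5e-05), and 30.5 and 23.9 in PGCs, against 401 and 339 in epiblast (-3.77 ± 0.33, adjusted p = 0.00012). Lrp2 had 3.10 and 9.38 in PGCLCs, against 258 and 353 in day 2 EpiLCs (at least 12.5-fold lower, adjusted p = 2.7e-05), and 11.7 and 14.9 in PGCs, against 308 and 317 in epiblast (at least 13.0-fold lower, adjusted p = 9.8e-05). The ERK phosphatase Dusp9 kept part of its level, with 619.5 and 601 in PGCLCs, against 1576 and 2666 in day 2 EpiLCs (-1.75 ± 0.64, not called). Il10, an anti-inflammatory cytokine gene, had 20.4 and 17.6 in PGCLCs, against 32.2 and 61.2 in day 2 EpiLCs (at least 1.85-fold lower, not called), and fell in PGCs by at least 2.04-fold (adjusted p = 0.013).

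Transcription, chromatin and RNA regulators numbered 17. Of these, 14 were called higher in day 2 EpiLCs than in ESCs and 14 lower in PGCLCs than in day 2 EpiLCs, 12 higher in epiblast than in ESCs, and 7 lower in PGCs than in epiblast. Along the EpiLC course 5 were called higher on day 3 than on day 1 and 4 lower. Tcfl5 had 112 and 77.6 in PGCs, against 2574 and 3049 in epiblast, 30-fold lower (adjusted p = 1.9e-05). Sox4, an HMG-box factor of progenitor cells, fell less, with 342 and 281 in PGCLCs, against 1106 and 1265 in day 2 EpiLCs (-1.93 ± 0.31, adjusted p = 0.0029), and 1039.5 and 559.6 in PGCs, against 1923 and 1720.2 in epiblast (-1.25 ± 0.31, adjusted p = 0.029). Myc, a transcription factor of cell growth, had 49.1 and 67.3 in PGCLCs, against 325 and 442 in day 2 EpiLCs (-2.72 ± 0.39, adjusted p = 0.0017), and in PGCs it fell by 2.91 ± 0.39 against epiblast (adjusted p = 0.0014). Sox4 was thus lowered and far from absent, whereas Tcfl5 came near the filter level in PGCLCs. Aire differed from the rule on amplified arrays: it had 82.7 and 97.0 in day 2 EpiLCs, against 269 and 208 in ESCs (-1.40 ± 0.54, adjusted p = 0.17). Lin28b, which blocks let-7 miRNA maturation, was low on amplified arrays, with 3.79 and 6.28 in PGCLCs, against 18.8 and 6.86 in day 2 EpiLCs, and had 136 and 88.9 on day 3, against 6.65 and 13.2 on day 1, of the unamplified course (at least 3.91-fold higher, adjusted p = 2.2e-05).

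Neuronal and synaptic genes numbered 17, and 16 of them were called lower in PGCLCs than in day 2 EpiLCs (81.8% of all 143 genes were), 13 higher in day 2 EpiLCs than in ESCs and 10 lower in PGCs than in epiblast. Nefl, the light neurofilament chain, had 32.5 and 34.5 in PGCLCs, against 911 and 1122 in day 2 EpiLCs (-4.92 ± 0.47, adjusted p = 0.00017), and 87.5 and 24.5 in PGCs, against 998 and 1138 in epiblast (-4.52 ± 0.47, adjusted p = 0.00032). ESCs already held 410.1 and 391, and the rise to day 2 EpiLCs was not called (1.34 ± 0.47). Nefm, the medium chain, fell in PGCLCs by 2.86 ± 0.70 (adjusted p = 0.024) and differed by 0.16 ± 0.70 between day 2 EpiLCs and ESCs, the lowest difference of the 138 tested genes but for that of Aire. Crmp1 had 88.7 and 80.3 in PGCLCs, against 1117 and 1087 in day 2 EpiLCs (-3.71 ± 0.45, adjusted p = 0.00065), and Kif5c, a kinesin heavy chain of axons, fell by 2.71 ± 0.50 (adjusted p = 0.0060). Syt13, an atypical synaptotagmin, had 256 and 204 in day 2 EpiLCs, against 3.81 and 5.28 in ESCs (at least 9.51-fold higher, adjusted p = 0.00016). PGCLC arrays stood below day 2 EpiLC arrays in each of these 5 genes.

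Matrix, adhesion and contractile genes numbered 16, of which 12 were called lower in PGCLCs than in day 2 EpiLCs and 8 lower in PGCs than in epiblast. Cthrc1 had 52.2 and 60.5 in PGCLCs, against 518 and 745 in day 2 EpiLCs (-3.47 ± 0.36, adjusted p = 0.00025). Podxl had 60.8 and 46.8 in PGCLCs, against 397 and 477 in day 2 EpiLCs (-3.03 ± 0.36, adjusted p = 0.00060), and 131 and 54.6 in PGCs, against 1129.9 and 1186 in epiblast (-3.78 ± 0.36, adjusted p = 0.00019). The tight junction gene Ocln had 5.39 and 3.01 in PGCLCs, against 199.8 and 77.9 in day 2 EpiLCs (at least 5.19-fold lower, adjusted p = 0.00032), while its rise over ESCs was not called (0.87 ± 0.51). Cdh10, a type II cadherin, lay under the filter level on every amplified PGC, PGCLC and ESC array, against 70.2 and 61.4 in day 2 EpiLCs.

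Metabolism and transport genes numbered 15, with 11 called lower in PGCLCs than in day 2 EpiLCs but 5 lower in PGCs than in epiblast. Slc35d3, described above for the embryo, had 17.9 and 19.7 in PGCLCs, against 213 and 319 in day 2 EpiLCs. Mt3 had 1.00 on both PGCLC arrays, against 188 and 145 in day 2 EpiLCs (at least 6.86-fold lower, adjusted p = 0.0026). Of 6 stress, apoptosis and immune genes, 6 were called lower in PGCLCs than in day 2 EpiLCs and 5 lower in PGCs than in epiblast. Pmaip1 in PGCLCs, at 558 and 339.7, against 3056 and 3515 in day 2 EpiLCs (-2.91 ± 0.67, adjusted p = 0.018), stayed above the filter level on both arrays, where PGCs held 27.9 and 4.49. Igtp, an interferon-induced GTPase, had 22.2 and 18.9 in PGCLCs, against 129 and 215 (at least 6.93-fold lower, adjusted p = 0.00027). The 36 genes in no group had 28 called lower in PGCLCs than in day 2 EpiLCs and 16 lower in PGCs than in epiblast.

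Gene lists of wider pathways hold some of the 143 genes, which made up 0.786% of all genes measured. The neural and synaptic list holds 5 of 51 (9.80%: Nefl, Nefm, Neurod1, Kif5c, Crmp1). The postimplantation epiblast list holds 3 of 37 (8.11%: Sox4, Myc, Hes6). The rule left aside Fgf5, Fgf15, Pou3f1, Otx2, Sox3, Car4 and Pim2 of this list. The meiosis and transposon silencing list holds 3 of 38 (7.89%: Sycp1, Syce3, Mael), and the WNT pathway list 2 of 28 (7.14%: Fzd2, Sfrp2). The lists were chosen with earlier results of these data known, so these shares are descriptions. The lists of core pluripotency (Lin28b, 8.33%), FGF and ERK response (Myc, 4.76%), and epithelial junctions and keratins (Ocln, 3.45%) hold 1 each. The cell cycle and p53 response list holds 2 (Pmaip1, Myc, 10%). The lists of naive pluripotency (16 genes), DNA methylation (11, of which the rule left aside Dnmt3a, Dnmt3b and Dnmt3l), Nodal and TGF-beta (19), glycolysis, lactate and hypoxia (26), early germ cells (19) and cell adhesion and guidance (59) hold 0. On amplified arrays, 20 of the 37 postimplantation genes were called lower in PGCLCs than in day 2 EpiLCs and 1 higher, and 19 were called lower in PGCs than in epiblast and 0 higher. Of the 49 neural genes tested there, 13 were called lower in PGCLCs and 1 higher, and 7 lower and 2 higher in PGCs. Of 35 meiosis genes tested, 2 were called lower in PGCLCs and 8 higher, whereas 23 were called lower in EpiSCs than in day 2 EpiLCs and 1 higher. Of 26 WNT genes tested, 3 were called lower in PGCLCs and 4 higher. Over all tested genes, 6.24% were called lower and 6.46% higher in PGCLCs. The shares were 4.36% and 6.11% in PGCs, and 3.86% and 8.61% in EpiSCs. The 2 meiosis genes lower in PGCLCs are thus close to the share over all tested genes.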

How the data were processed

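Each of the 24 Affymetrix mouse arrays came as 1 deposited table of 45101 probe sets with an intensity on a linear scale (1.00 to 17518.6). How the authors summarised and scaled these intensities is not stated in the labels used here. Per the labels' protocols, 12 arrays carry PCR-amplified RNA and 12 do not. Probe sets were named by the platform annotation: 34958 with 1 symbol, 932 with several and 9211 not listed. Intensities under 4.2 were raised to 4.2, log2 was taken, and each of 18194 genes was read from its single-symbol probe set with the highest mean over all 24 arrays. Among the 143 genes, 84 have 1 probe set and 141 matched RefSeq.

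Amplified and unamplified arrays were fitted apart with limma 3.58.1 (R 4.3.3; lmFit, eBayes with an intensity trend, all 6 groups in the fit), over 15609 and 14935 genes above the 40th percentile on at least 2 arrays. A call is a Benjamini-Hochberg adjusted p under 0.05 over all tested genes with a log2 difference of at least 1. The fits were also run on simulated data, and the outcome is not given here. Values after ± are standard errors of the fit unless marked otherwise. The members, gene lists and roles were chosen with earlier results of these data known, so the lists are descriptions.

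Named were the 8 widest margins, the 3 genes at each end of each comparison (5 for PGC against epiblast, day 2 EpiLC against epiblast and the interaction; provisional names passed over), members of gene lists, genes nearest each limit, and genes behind counts of 5 or fewer. Replicate numbers pair the amplified arrays: residuals of same-numbered arrays correlated above 0.1 in 15 of 15 pairs of groups (median r 0.371), and each number goes with 1 code of the array descriptions. On unamplified arrays 3 of 15 pairs did (median 0.0545). Alternatives were another floor, no filter, median centring, quantile normalization, the replicate number or array code as a block, no intensity trend, only the compared groups, the mean over probe sets, and each array left out in turn. Promoter windows and chromosomes came from RefSeq (GRCm38.p6).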

Additional observations from a re-analysis of the deposited data

Results flagged for a closer look

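The lowering of 7 genes on becoming germ cells differed between culture and embryo by the interaction test on amplified arrays, PGCLC minus day 2 EpiLC less PGC minus epiblast. The difference of the steps on the log2 scale was -4.70 for Neurod1, -4.14 for Sfrp2, -3.49 for Fndc3c1, -3.16 for Dab1, -3.14 for Igsf9, -3.01 for Hes6 and -2.88 for Galnt3, with low values as measured. Both PGCLC arrays of Neurod1, Sfrp2 and Dab1 lay under the filter level. Held at that level, their differences were -3.12, -2.64 and -2.07, of which that of Neurod1 was called. Groups of 2 arrays were not tested for outlying samples. The rule chose genes for their fall in culture and set no condition on the embryo, so a deeper fall in culture was favoured in advance.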

How the results depend on the processing

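In 26 settings, 77 pairs of a named gene and a comparison were followed. No pair called in the main fit changed direction, and the direction of uncalled pairs was not checked. Of the values, 1499 kept their side of the threshold, while 33 passed it anew and 79 no longer did. The call of Hes6 in the interaction was lost in 11 settings, that of Galnt3 in 10, Sfrp2 and Dab1 in 8 each, Fndc3c1 in 7, Neurod1 in 4 and Igsf9 in 3. Between PGCLCs and PGCs, Fgfbp3 lost its call in 6 settings, Mael in 4 and Chac1 in 2. With the replicate number as a block (paired arrays), the interaction was called for 16 genes in place of 7, and day 2 EpiLC against epiblast for 6 in place of 2, where Lmo2 joined; Fgfbp3, Car3 and Pmaip1 joined in the interaction, and no other call that the text rests on changed. Other counts with the block were 111 for day 2 EpiLC over ESC, 125 for PGCLC under day 2 EpiLC and 89 for PGC under epiblast. Day 2 EpiLC against epiblast gave 7 with a floor at the 40th percentile, 1 without the filter, 1 with only the compared groups, and 6 without both EpiSC arrays, a setting chosen after seeing the data. With only the compared groups, EpiSC under day 2 EpiLC gave 17 in place of 38 and PGCLC against PGC 0 in place of 27, with fewer arrays to estimate the spread. The mean over probe sets gave 3 in the interaction, and the cause was not tested. Leaving out 1 array in turn gave counts of 67 to 107 for day 2 EpiLC over ESC, 86 to 124 for PGCLC under day 2 EpiLC, 61 to 95 for epiblast over ESC, 42 to 81 for PGC under epiblast, 1 to 6 for day 2 EpiLC against epiblast, 26 to 41 for EpiSC under day 2 EpiLC, 10 to 30 for PGCLC against PGC, 0 to 17 in the interaction, 89 to 97 for day 3 against day 1 and 46 to 53 for EpiSC under day 3 EpiLC. The set itself numbered 105 genes with the higher floor (105 of them among the 143), 129 with centred arrays (129) and 119 with the mean over probe sets (112). With array code as a block on unamplified arrays the counts were 97 for day 3 against day 1 and 55 for EpiSC under day 3 EpiLC. Sizes that rest on values under the filter level are uncertain, and with 2 arrays a group small differences could not be detected.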

Other observations

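The X chromosome held 13 of the 141 genes with a RefSeq match (9.22%), against 3.27% of the 14835 matched genes tested on unamplified arrays. They are Gm364, Fgf13, Stk26, Rab39b, Tsx, Chst7, Fndc3c1, Dusp9, Hs6st2, Zcchc18, Armcx4, Armcx3 and Nap1l2, a set picked after the chromosome counts were seen. Of the 12 that could be tested on amplified arrays, 6 were called higher in day 2 EpiLCs than in ESCs, 10 lower in PGCLCs than in day 2 EpiLCs and 5 lower in E9.5 PGCs than in epiblast. The same calls covered 69.9%, 81.8% and 49.7% of all 143 genes, and 4.27%, 6.24% and 4.36% of all tested genes. Armcx3, an armadillo repeat gene of mitochondria, fell in PGCLCs by 1.94 ± 0.42 (adjusted p = 0.014) and was higher in EpiSCs than in day 2 EpiLCs by 1.91 ± 0.42 (adjusted p = 0.016). Its neighbour in family, Armcx4, fell in PGCLCs by 2.28 ± 0.56 (adjusted p = 0.025). Fgf13, an intracellular FGF homologue, fell in PGCLCs at least 10.8-fold (adjusted p = 0.00068; 1 of 2 PGCLC arrays above the filter level) and in PGCs by 2.16 ± 0.43 (adjusted p = 0.011). Chromosome 2 held 12.1% of the genes against 7.89% of tested genes, and chromosome 18 held 5.67% against 2.46%. These shares are descriptions, and the chromosomes were not tested.

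Median observed over expected CpG was 0.613 in the promoter windows of the set and 0.712 in those of all tested genes, while median GC content was 62.7% and 60%.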
